A study of Mus musculus with 28 samples.

Results

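The genes described here are those that mark fat cells and their lipid droplets: the secreted hormones adiponectin (Adipoq), resistin (Retn) and leptin (Lep), the droplet coat proteins perilipin 1 (Plin1) and perilipin 4 (Plin4), the droplet fusion proteins Cidea and Cidec, the fatty acid carrier Fabp4, the glucose transporter trafficking regulator Trarg1, and complement factor D (Cfd). They were chosen by name, and each was read from the probe set that its array's annotation gives to that gene alone. Of the 10 genes, 9 had exactly 1 such probe set on both array types, out of 18974 genes measured on both. Cfd had none and was not analysed here. The number of genes tested was 19928 on the liver and quadriceps arrays and 30063 on the heart and gastrocnemius arrays.

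White fat cells store triglyceride in 1 large droplet whose surface carries perilipin 1, which holds back the lipases until fasting signals release it. CIDE proteins let droplets exchange lipid and grow, and fat cells release adiponectin, leptin and resistin into the blood. Liver and muscle also store lipid in smaller droplets inside their own cells, with partly different coat proteins, and fat cells can lie between muscle fibres or around an organ and enter a dissected piece of it. In a homogenised tissue, fewer fat cells and less RNA per fat cell cannot be told apart.

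The study profiled liver, quadriceps, heart and gastrocnemius of female C57BL/6J mice that were housed in groups on a standard chow and killed after an overnight fast. The mice were 6 months old (24 weeks) or 24 months old (103 weeks), and carried no other treatment. Liver and quadriceps had 3 arrays per age on 1 Affymetrix array type, and heart and gastrocnemius had 4 per age on another, 28 arrays in all. The labels do not tell if each array of a group is another animal, or if 1 animal gave several tissues, so p-values measure only the spread between these arrays.

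Values are log2 expression as deposited, where a difference of 1 is a 2-fold difference. Levels were compared between tissues only within an array type, and never between probe sets. The tissue labels matched their markers: Alb, the serum albumin of hepatocytes, had a mean of 14.1 in liver at 6 months, Myh4, a fast muscle myosin, 13.8 in quadriceps and Myh6, the cardiac myosin, 13.2 in heart. Within a tissue, the lowest correlation between 2 arrays over all genes was 0.985 in liver, 0.992 in quadriceps, 0.995 in heart and 0.993 in gastrocnemius.

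The upstream sequence of 4 members is shown because their quadriceps levels followed the members' mean, of which each is a part (Pearson r 0.93 to 0.994). All 4 were lowest in 6-month replicate 3, but Plin1 did not share the full order of arrays described below. Each run gives the 250 bases before the gene's annotated start, 5′ to 3′ on the gene's own strand, from RefSeq on build GRCm38.p6, in which 7 of the 10 genes have an entry (none for Cidea, Fabp4 and Trarg1). Capitals mark every match, on either strand, to CCAAT or to TTGCNNAA, a core bound by C/EBP factors of fat cells, where N is any base. Cidec has 2 annotated starts, and both are given.
Adipoq, chr16:23146286-23146535, plus strand: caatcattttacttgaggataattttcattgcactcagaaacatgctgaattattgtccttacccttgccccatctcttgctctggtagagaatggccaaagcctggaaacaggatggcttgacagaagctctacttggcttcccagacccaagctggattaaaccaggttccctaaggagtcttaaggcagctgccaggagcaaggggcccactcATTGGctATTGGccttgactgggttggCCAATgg
Cidec, first start, chr6:113435761-113436010, minus strand: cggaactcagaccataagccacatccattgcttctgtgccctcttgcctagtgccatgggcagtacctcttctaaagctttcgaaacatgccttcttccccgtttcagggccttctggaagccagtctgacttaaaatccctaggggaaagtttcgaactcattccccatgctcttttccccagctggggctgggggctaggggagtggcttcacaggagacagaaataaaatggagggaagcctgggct
Cidec, second start, chr6:113434765-113435014, minus strand: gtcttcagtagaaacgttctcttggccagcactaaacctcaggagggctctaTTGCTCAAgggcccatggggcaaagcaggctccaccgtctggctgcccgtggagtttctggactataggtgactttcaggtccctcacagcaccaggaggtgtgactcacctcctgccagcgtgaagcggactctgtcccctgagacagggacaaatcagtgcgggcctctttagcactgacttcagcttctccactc
Plin1, chr7:79732777-79733026, minus strand: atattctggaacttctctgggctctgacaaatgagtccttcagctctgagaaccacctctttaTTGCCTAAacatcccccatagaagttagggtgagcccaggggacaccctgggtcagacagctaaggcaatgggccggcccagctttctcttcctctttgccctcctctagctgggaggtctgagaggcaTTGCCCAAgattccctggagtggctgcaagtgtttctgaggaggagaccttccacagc
Retn, chr8:3655520-3655769, plus strand: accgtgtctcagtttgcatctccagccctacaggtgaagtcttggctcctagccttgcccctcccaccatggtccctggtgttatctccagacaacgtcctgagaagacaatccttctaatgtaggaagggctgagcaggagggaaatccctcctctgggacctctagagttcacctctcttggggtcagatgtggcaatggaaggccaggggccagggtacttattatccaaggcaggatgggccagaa

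Adipoq held 3 matches to CCAAT, which lay 34 to 30, 27 to 23 and 7 to 3 bases before the start. Plin1 held 2 matches to TTGCNNAA, TTGCCTAA at 187 to 180 and TTGCCCAA at 58 to 51 bases before the start, and the second Cidec start held TTGCTCAA at 198 to 191. Among the members not printed, Lep held TTGCGCAA at 55 to 48 bases before its start and Plin4 held CCAAT at 18 to 14. No match to either pattern lay in the Retn sequence or before the first Cidec start. Over the same 250 bases of all 32851 promoter entries, 33.8% held CCAAT and 9.56% held TTGCNNAA. AGGTCA, a half-site of nuclear receptors (14.0% of entries), its direct repeat with a spacer of 1 base (0.0335%) and TATAAA (12.4%) were searched on both strands and matched in none of the 7 genes. These matches are descriptions of the letters and not measured binding.

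More of these genes passed an adjusted p of 0.05 between tissues than between ages, as did more of all genes. In size Cidea went the other way: it differed by 1.68 between the ages in liver and by 0.29 between young liver and quadriceps. At 6 months, 8 of the 9 genes differed between liver and quadriceps at an adjusted p under 0.05 (limma, Benjamini-Hochberg over all genes), and 68.2% of all genes tested did. Of these, 1 was higher and 7 were lower in liver, against 40.7% and 27.5% of all genes. All 9 differed between heart and gastrocnemius, where 75.5% of all genes did. In heart 4 were higher and 5 lower, against 60.8% and 14.7% of all genes. The shares called in either direction were near the background, and the split by direction was not tested against other genes.

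**Figure D1:**
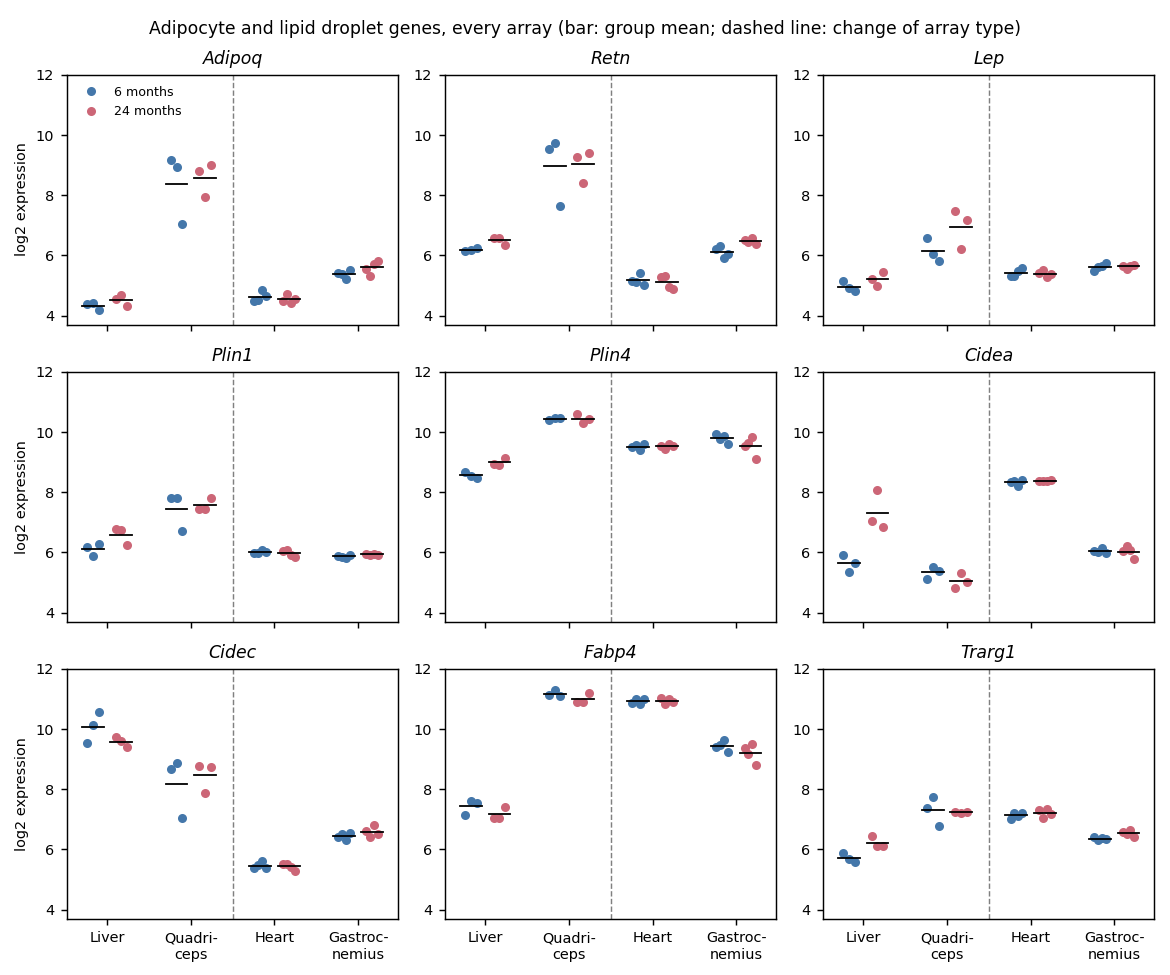
Each point is 1 array's log2 expression of 1 gene, blue at 6 months and red at 24 months, with the group mean as a bar; the dashed line separates the array types, across which levels are not compared. Adipoq, Retn and Cidec spread over 1.82 to 2.13 between quadriceps arrays, Cidea at 24 months lies above every 6-month array in liver, and the heart points lie close together.

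The 3 hormones were dim in liver and brighter in quadriceps. Adipoq averaged 4.33 ± 0.11 in liver and 8.38 ± 1.17 in quadriceps at 6 months (SD, n = 3 arrays each), a log2 difference of -4.05 (SE 0.42, adjusted p = 1.08e-06, limma). Retn was 6.93-fold lower in liver (6.18 against 8.98, adjusted p = 3.73e-05, limma) and Lep was lower by 1.19 (4.96 against 6.15, adjusted p = 0.00139, limma). In liver every Adipoq array lay between the 6.05 and 9.43 percentiles of all genes' signal, among the dimmest probe sets of the array, and Lep between 12.4 and 21.2. The tables used here carry no detection calls, so no fold is given for these 2 genes. In heart the same 3 hormones were lower than in gastrocnemius, Adipoq by 0.75 (adjusted p = 9.87e-06, limma), Retn by 0.94 (adjusted p = 7.69e-07) and Lep by 0.20 (adjusted p = 0.0169).

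The droplet proteins did not follow a single order over the tissues. Cidec, which is known to enlarge droplets in fat cells and in fatty liver, was the member that was higher in liver than in quadriceps, 10.08 ± 0.52 against 8.19 ± 1.0 (3.71-fold, adjusted p = 0.000868, limma). Plin4 was 3.72-fold lower in liver (8.56 against 10.45) and Plin1 2.50-fold lower (6.12 against 7.44). Cidea, known from brown fat, where it builds droplets, did not pass between liver and quadriceps (5.63 against 5.35, difference 0.29 with a 95% confidence interval from -0.26 to 0.84, adjusted p = 0.332, limma).

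Cidea had its clearest tissue difference between heart and gastrocnemius. The 4 heart arrays at 6 months read 8.33, 8.39, 8.21 and 8.41 and the 4 gastrocnemius arrays 6.05, 6.02, 6.14 and 5.97, a 4.89-fold higher level in heart (log2 2.29, SE 0.07, adjusted p = 9.66e-14, limma). Fabp4, which capillary endothelium also makes, was 2.79-fold higher in heart than in gastrocnemius (10.92 against 9.45, adjusted p = 1.04e-08, limma) and 13.4-fold lower in liver than in quadriceps (7.43 against 11.18, adjusted p = 1.28e-11). Trarg1, which steers the glucose transporter of fat and muscle to the cell surface, was 1.71-fold higher in heart than in gastrocnemius and 3.0-fold lower in liver than in quadriceps. Cidec was 1.96-fold lower in heart than in gastrocnemius.

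The 2 smallest perilipin differences between heart and gastrocnemius did not hold across settings. Plin1 was 0.14 higher in heart as deposited (adjusted p = 0.0252, limma), but lower with quantile normalization (-0.175), with arrays centred on their median (-0.183) and with cyclic loess normalization (-0.176). These settings take away a difference common to most genes: the median heart minus gastrocnemius difference of all genes was 0.265 as deposited and -0.01, -0.053 and -0.001 in the same order. Relative to that common shift, Plin1 was lower in heart. The number of genes called higher in heart was 18264 of 22691 as deposited, 9003 of 18632 with quantile normalization, 7880 of 19062 with median centring and 9403 of 18800 with cyclic loess. Plin4 was lower in heart by 0.28 (adjusted p = 0.0375, limma) and did not pass with quantile normalization (-0.179, adjusted p = 0.181) or cyclic loess (-0.194, adjusted p = 0.144). Without single arrays at 6 months the call was also lost for Plin4 (heart replicates 1 and 3, gastrocnemius replicates 1, 2 and 3), Plin1 (heart replicate 3, gastrocnemius replicates 2 and 3) and Lep (heart replicates 1 and 2, gastrocnemius replicate 4). The other members kept their signs, but sizes depended on the setting. Over alternatives with every array, Cidea lay between 1.973 and 2.29, Fabp4 between 1.16 and 1.601 and Trarg1 between 0.452 and 0.77. Adipoq lay between -1.109 and -0.753, Cidec between -1.285 and -0.968, Retn between -1.266 and -0.942 and Lep between -0.53 and -0.197.

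Between liver and quadriceps the corresponding median of all genes was 0.10 as deposited and -0.061, -0.017 and 0.003 under the same 3 settings. The genes called higher in liver numbered 8111 of 13590 as deposited, 6166 of 13874, 6746 of 13682 and 7030 of 13893. All 8 members called between these tissues kept their direction under every alternative run.

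Against the age of the animals, no member passed the adjusted threshold in any tissue (0 of 9 in each, limma). In liver 0.326% of all genes passed, in quadriceps 0.00502%, in heart 0.00665% and in gastrocnemius 0.00998%. The mean was higher at 24 months for 7 members in liver (54.4% of all genes), 5 in quadriceps (52.4%), 4 in heart (56.6%) and 6 in gastrocnemius (55.8%). At an unadjusted p under 0.05 there were 5 members of 9 in liver, where 32.8% of all genes reached it, 1 in quadriceps (7.06%), 0 in heart (5.99%) and 2 in gastrocnemius (16.5%). The median age difference of the 9 genes (24 minus 6 months) was 0.33 in liver against 0.03 over all genes, 0.05 against 0.01 in quadriceps, -0.03 against 0.01 in heart and 0.06 against 0.02 in gastrocnemius.

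**Figure D2:**
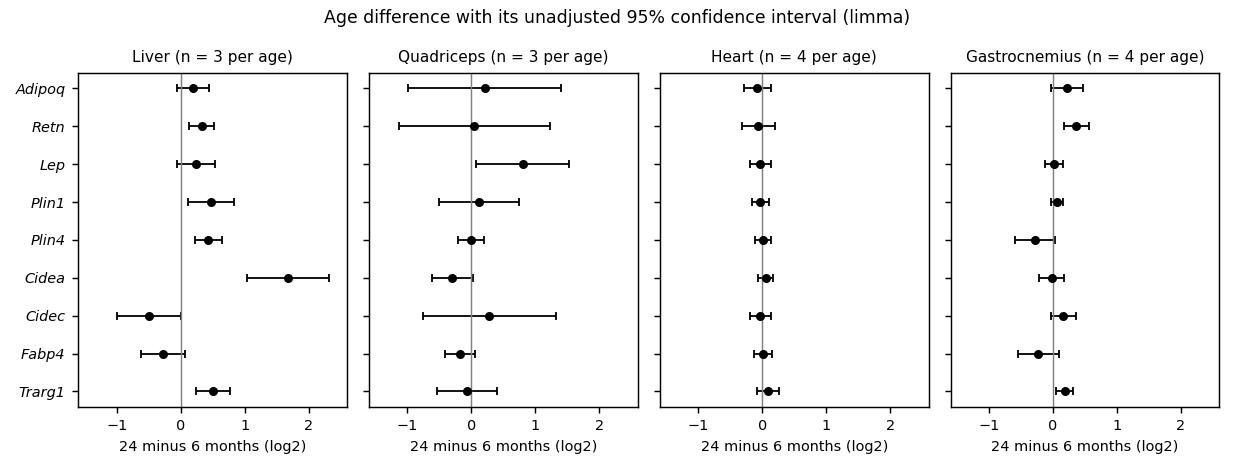
Each point is a gene's log2 difference, 24 minus 6 months, with its unadjusted 95% confidence interval from limma, in 4 panels by tissue. Intervals are wide in quadriceps for Adipoq, Retn and Cidec and narrow in heart, and Cidea in liver has the interval farthest from 0 (1.04 to 2.32).

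Liver held the largest age difference of the set, in Cidea. The 3 arrays at 6 months read 5.91, 5.35 and 5.64, and the 3 at 24 months 7.04, 8.06 and 6.84. The ages did not overlap, and old replicate 2 stood highest. The means were 5.63 ± 0.28 and 7.31 ± 0.65 (SD, n = 3), a difference of 1.68 (SE 0.28), or 3.20-fold. The lowest young array lay at the 21.2 percentile of all genes' signal, as did the brightest liver array of Lep. The fold thus starts from a dim level without detection calls. The adjusted p was 0.0543 (limma), so the difference did not pass, although its rank by p was 83 of 19928 genes.

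Plin4, a coat protein that liver cells also make, read 8.67, 8.53 and 8.47 at 6 months and 8.93, 8.91 and 9.13 at 24 months. Its ages did not overlap either, and the difference of 0.43 (SE 0.09, 1.35-fold) had an adjusted p of 0.0543 (limma). Trarg1 went from 5.88, 5.67 and 5.60 to 6.45, 6.12 and 6.10, a difference of 0.51 (SE 0.12, adjusted p = 0.0571, limma). Retn had 6.14, 6.18 and 6.23 against 6.58, 6.59 and 6.36, a difference of 0.33 (SE 0.09, adjusted p = 0.0646). These 4 genes were the members without overlap of the ages, and 36.1% of all genes in liver had none.

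Plin1, the perilipin of the fat cell droplet, had 6.19, 5.87 and 6.29 in young liver and 6.77, 6.76 and 6.24 in old liver. Old replicate 3 lay among the young arrays, and the difference of 0.47 had an adjusted p of 0.0916 (limma). Cidec and Fabp4 were the members lower in old liver. Cidec read 9.53, 10.15 and 10.56 at 6 months and 9.74, 9.61 and 9.40 at 24 months, a difference of -0.50 (SE 0.22, adjusted p = 0.157). Cidea and Cidec, the 2 droplet fusion proteins, therefore had opposite signs in the same liver arrays, neither past the threshold. Fabp4 differed by -0.27 (adjusted p = 0.236). Lep differed by 0.24 (adjusted p = 0.218) and Adipoq by 0.19 (adjusted p = 0.25).

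Most dim genes were higher in old liver, and most bright ones lower. Over 10 classes of equal size ordered by mean level, the median age difference of all genes went from 0.063 in the dimmest class through 0.183 in the fourth to -0.143 in the ninth and -0.077 in the brightest. Adipoq lay in class 1, Lep in class 2 and Trarg1 in class 4, while Cidea, Plin1 and Retn lay in class 5, whose median was 0.153. For Retn the difference was thus 0.33 in a class with a median of 0.153, and for Cidea 1.68 in the same class. Plin4 lay in class 9, where the median was -0.143, so its sign was opposite to that of its class. Fabp4 (class 7, median -0.09) and Cidec (class 10) were lower, as their classes were.

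**Figure D3:**
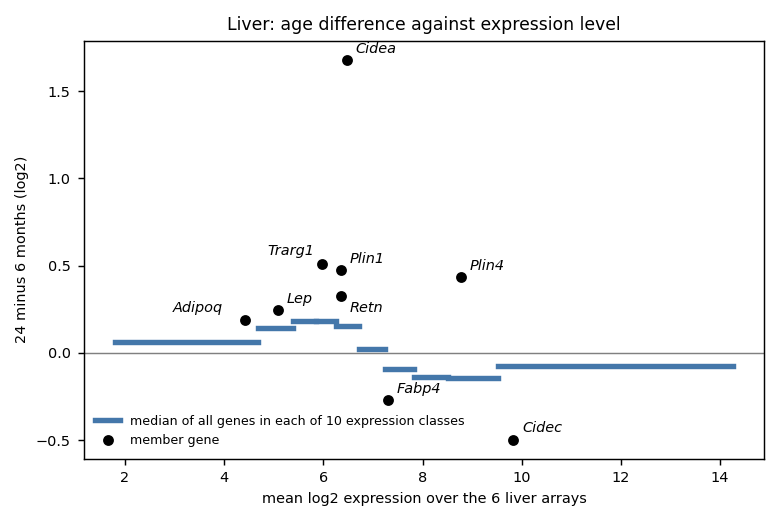
Black points are the 9 genes in liver, with the mean log2 expression of the 6 arrays on the x axis and the difference, 24 minus 6 months, on the y axis; blue bars are the medians of all genes in 10 classes of expression level. Cidea (1.68) lies far above the bar of its class (0.153), and Plin4 (0.43) lies above 0 where the bar is at -0.143.

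Quantile and cyclic loess normalization of the liver arrays moved the dim members toward 0 and Plin4 away from it. With quantile normalization and with cyclic loess, Retn went from 0.33 to 0.19 in both, Trarg1 from 0.51 to 0.35 and 0.34, and Cidea from 1.68 to 1.62 and 1.56. Plin4 went up from 0.43 to 0.57 and 0.58 and passed with cyclic loess (adjusted p = 0.0444, limma). With arrays centred on their median Plin4 went down instead, to 0.34 (adjusted p = 0.0542, limma). The number of members called in liver was 2 with arrays centred on their median (Cidea, adjusted p = 0.0342, and Trarg1, 0.0467), 2 in a joint fit with quadriceps (Cidea, 0.00614, and Plin4, 0.014), and 3 with an intensity trend and a robust prior (Cidea, Plin4 and Trarg1). Many other genes passed in these runs too: 1960, 3625 and 2243 of 19928 in the same order. With cyclic loess 99 genes passed, and 65 did as deposited.

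A single old array also decided the calls. Without 24-month replicate 3, 5 members passed, namely Cidea (1.92, adjusted p = 0.0156, limma), Plin1 (0.65, adjusted p = 0.0177), Retn (0.40, adjusted p = 0.0171), Trarg1 (0.57, adjusted p = 0.022) and Plin4 (0.36, adjusted p = 0.0263). In that fit 5073 genes passed in all, 2852 of them higher at 24 months, against 65 and 28 with every array. Another old array, replicate 2, stood apart in digestive enzyme genes: the mean of 8 exocrine pancreas markers was 9.62 there, and the other 5 liver arrays had 6.00 to 6.49. Without it, Cidea differed by 1.31 (SE 0.161, adjusted p = 0.12) and Plin4 by 0.47 (adjusted p = 0.172), and no member passed. Only 1 of 19928 genes passed in that fit. Leaving out 24-month replicate 1 instead also left 1 gene past the threshold, with Cidea at 1.82 (adjusted p = 0.111, limma). The direction of all 9 members was the same in each of these fits.

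Markers of other cells were read beside these liver values. Of all genes, 54.4% were higher in old liver, with 65.8% to 85.2% in the dim classes 1 to 5. An unadjusted p under 0.05 was reached by 32.8% of all genes. The 10 measured other fat cell markers had a mean of 6.70 to 6.79 over the 6-month arrays and 6.87 to 6.94 over the 24-month arrays, 8 of 10 higher at 24 months and 0 past the threshold. The 8 brown and beige fat markers averaged 6.43 to 6.53 and 6.51 to 6.71, with 7 of 8 higher (median difference 0.17), 2 at an unadjusted p under 0.05 and 0 past the adjusted threshold. Ucp1, which defines brown fat, read 4.35 to 4.84 and 4.58 to 5.15. The mesothelial markers averaged 5.76 to 5.82 and 5.89 to 6.06, with 5 of 7 higher. Skeletal muscle markers, which liver lacks, were also higher in 4 of 4 (median difference 0.31). The part of these markers in the members' values was not tested.

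The 3 hormones spread more between arrays in quadriceps than in the other tissues, and the low arrays of Adipoq and Retn belonged to both ages. Adipoq read 9.16, 8.94 and 7.03 at 6 months and 8.80, 7.95 and 9.01 at 24 months. The young replicate 3 was the lowest of the 6 arrays, and the old replicate 2 the next. Retn read 9.54, 9.75 and 7.64 and then 9.27, 8.40 and 9.40, with the same 2 arrays lowest. Cidec read 8.67, 8.86 and 7.04 and then 8.78, 7.87 and 8.75, and Trarg1 7.38, 7.75 and 6.77 and then 7.24, 7.20 and 7.25, again in that order. This order was present in 4 of the 9 members and in 611 of 19928 genes (3.07%), and it was noticed in these arrays.

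Plin1 was low in the young replicate 3 alone, with 7.81, 7.80 and 6.71 against 7.43, 7.44 and 7.81. Lep, whose level follows fat stores, read 6.58, 6.06 and 5.81 at 6 months and 7.49, 6.20 and 7.16 at 24 months. Plin4 (10.29 to 10.60) and Fabp4 (10.89 to 11.31), which muscle fibres and capillaries also express, stayed within 0.31 and 0.42 over the 6 arrays. The range over the arrays was at least 1 in 5 members (Adipoq 2.13, Retn 2.11, Cidec 1.82, Lep 1.68, Plin1 1.10) and in 1.13% of all genes. Cidea, with 5.13, 5.52 and 5.39 and then 4.81, 5.30 and 5.03, did not follow the others.

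**Figure D4:**
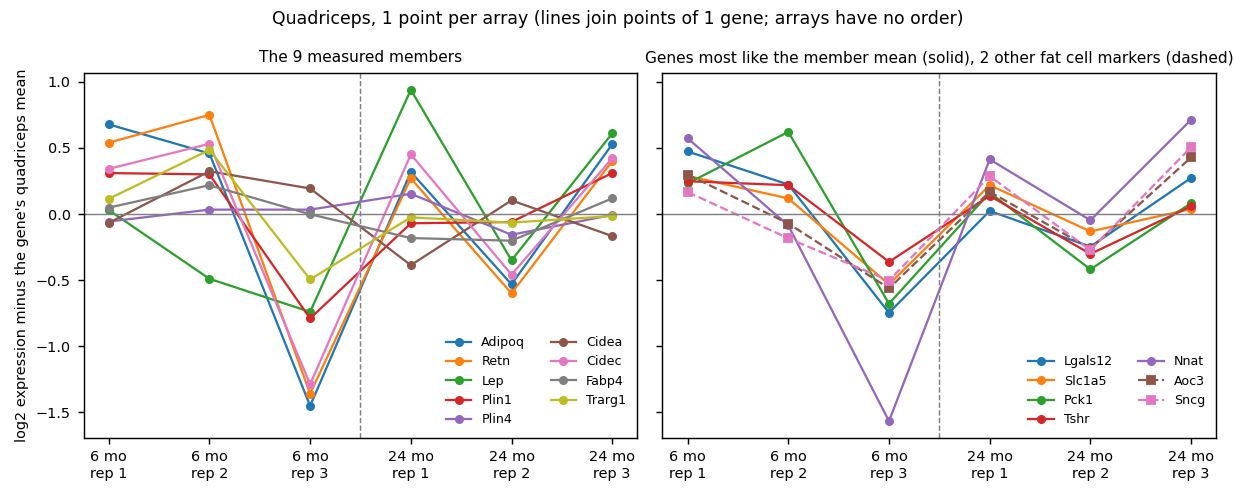
Log2 expression in each of the 6 quadriceps arrays minus the gene's quadriceps mean, for the 9 members at the left, and at the right for the 5 genes most like the members' mean (solid) and the fat cell markers Aoc3 and Sncg (dashed); lines only join the points of 1 gene. Adipoq, Retn, Cidec and Trarg1 are lowest in 6-month replicate 3 and next lowest in 24-month replicate 2, while Plin4 and Fabp4 stay near 0.

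None of the age differences in quadriceps passed (limma). Lep had the smallest p, with means of 6.15 ± 0.39 and 6.95 ± 0.67 (SD, n = 3), a difference of 0.80 (SE 0.32, 1.74-fold) with an adjusted p of 0.671. The ages overlapped in all 9 genes, and did not in 12.0% of all genes. Cidea differed by -0.30 (adjusted p = 0.706), and the other 7 had adjusted p-values from 0.781 to 0.991. The intervals were wide: Adipoq differed by 0.21 with a 95% confidence interval from -0.98 to 1.40, and Retn by 0.05 with one from -1.13 to 1.23. The pooled SD was 0.918 for Adipoq and 0.907 for Retn, against a median of 0.103 over all genes in quadriceps.

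The sign of these differences rested on the low arrays. Without 6-month replicate 3 Adipoq differed by -0.463, Retn by -0.622, Cidec by -0.298 and Plin1 by -0.245. Without both low arrays, a setting chosen after the data were seen, Adipoq differed by -0.145, Retn by -0.31, Plin1 by -0.185 and Cidec by 0, while Lep differed by 1.005 (adjusted p = 0.763, limma). Again no member passed.

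Some fat cell markers outside the set had the same order over the quadriceps arrays, and others did not. Aoc3, an amine oxidase on the fat cell surface, read 7.14, 6.77 and 6.28 and then 7.01, 6.58 and 7.27, and Sncg, a synuclein abundant in fat, 8.39, 8.04 and 7.72 and then 8.51, 7.95 and 8.73. The order with the young replicate 3 lowest and the old replicate 2 next was present in 4 of 10 such markers (Aoc3, Mrap, Sncg and Slc7a10). By contrast, Adig was lowest in the old replicate 1 (6.63) and Npr3 in the young replicate 2 (7.13). Lpl, the lipase that muscle and fat both make, was instead highest in the young replicate 3 (11.62, the others 10.62 to 11.38). The hepatocyte marker Alb also varied between these arrays, at 9.55 to 10.45 in the young and 7.58 to 11.91 in the old ones. The mean of 4 ventricular heart markers, among them Myl2, a myosin light chain of heart and slow muscle, was highest in the 2 arrays where Adipoq was lowest: 7.15 in the young replicate 3 and 6.74 in the old replicate 2, against 6.15 to 6.67 in the others. Myl2 itself read 5.67, 6.61 and 9.01 and then 7.65, 7.45 and 6.87. The part of these markers in the members' values was not tested.

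The genes whose pattern was most like the mean of the 9 members were Lgals12, Slc1a5, Pck1, Tshr and Nnat, out of the genes on both array types. Over the 28 arrays, each gene centred within its tissue, Pearson r with that mean was 0.887, 0.828, 0.817, 0.808 and 0.799. Leaving out quadriceps, where the members vary most, the values were 0.734, 0.508, 0.473, 0.604 and 0.572. Lgals12 read 7.69, 7.44 and 6.47 in young quadriceps and 7.24, 6.97 and 7.49 in old quadriceps. Among the members themselves r was highest for Retn (0.919), Plin1 (0.882) and Adipoq (0.873) and lowest for Fabp4 (0.024), and each member is a part of that mean. Arrays of 1 tissue may share their normalization, which the labels do not state, so these are descriptions only.

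In heart the 9 genes were level between the ages. The differences lay between -0.08 (Adipoq) and 0.09 (Trarg1), with adjusted p-values from 0.975 to 0.996 (limma). The ages overlapped in all 9 genes, and did not in 3.29% of all genes. Cidea read 8.33, 8.39, 8.21 and 8.41 at 6 months and 8.38, 8.38, 8.37 and 8.42 at 24 months. Its 95% confidence interval ran from -0.06 to 0.17, well inside a difference of 1. Fabp4 (interval from -0.12 to 0.16), Plin4 (-0.12 to 0.14) and Plin1 (-0.17 to 0.10) had intervals as narrow.

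The heart arrays differed in their atrial markers, and the dim fat cell genes were read beside them; the part of these markers in the members' values was not tested. The mean of 5 atrial markers lay between 8.59 and 10.01 at 6 months and between 7.19 and 9.65 at 24 months. It was highest in 6-month replicate 3 (10.01) and 24-month replicate 2 (9.65), which were the highest arrays of their age in Adipoq (4.86 and 4.73) and in Retn (5.40 and 5.30). Other arrays did not follow: 24-month replicate 1 had the lowest atrial mean (7.19) with a Retn of 5.28, and 6-month replicate 1 had an atrial mean of 9.40 with the lowest young Adipoq (4.48). With that mean as a covariate, a setting added after the data were seen, the 9 differences lay between -0.044 (Fabp4) and 0.039 (Cidec and Retn), and no member passed.

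Gastrocnemius had a single member whose ages did not overlap, Retn, and 8.65% of all genes had none there. The 4 young arrays read 6.20, 6.30, 5.91 and 6.03, and the 4 old arrays 6.51, 6.43, 6.58 and 6.38. The difference was 0.37 (SE 0.09, 1.29-fold) with an adjusted p of 0.12 (limma), so it did not pass. Without single arrays it lay between 0.298 and 0.428. Trarg1 read 6.41, 6.31, 6.37 and 6.35 and then 6.57, 6.53, 6.66 and 6.41, so that the ages met at 6.41, and differed by 0.18 (adjusted p = 0.189).

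Adipoq in gastrocnemius read 5.41, 5.39, 5.21 and 5.50 and then 5.55, 5.30, 5.72 and 5.82, a difference of 0.22 (adjusted p = 0.347, limma). Plin4 read 9.94, 9.76, 9.88 and 9.62 and then 9.53, 9.64, 9.83 and 9.09, and Fabp4 9.42, 9.47, 9.65 and 9.24 and then 9.37, 9.16, 9.51 and 8.81. In both genes replicate 4 was the lowest array of its age. Lpl was lowest there too (9.69 and 9.29, the others 10.33 to 10.67), as was the fatty acid transporter Cd36 (10.41 and 10.26, the others 10.83 to 11.26). Plin4 differed by -0.28 (adjusted p = 0.36) and Fabp4 by -0.23 (adjusted p = 0.445), and without the old replicate 4 by -0.133 and -0.098. Both lay in the brightest of 10 classes of level in gastrocnemius. The median difference of that class was -0.08, and 31.2% of its genes were higher at 24 months. The remaining 4 genes differed by 0.16 (Cidec), 0.06 (Plin1), 0.02 (Lep) and -0.02 (Cidea). Beside these values, 5 of 5 macrophage markers were higher at 24 months in gastrocnemius (mean of the list 6.60 to 6.70 and 6.69 to 7.07), with Mrc1, a macrophage mannose receptor, differing by 0.41 (adjusted p = 0.0734, limma), and the part of macrophages was not tested.

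The tissues were also compared in their age differences, within an array type. For Cidea the difference was 1.68 in liver and -0.30 in quadriceps, which differ by 1.98 (SE 0.36, 95% confidence interval from 1.2 to 2.76) with an adjusted p of 0.0709 (limma). No member passed here (0 of 9, with 0.0151% of all genes past the threshold), and 3 members reached an unadjusted p under 0.05 where 19.8% of all genes did. Cidea passed with arrays centred on their median, with dim genes left out, without liver 6-month replicate 1 (2.12, adjusted p = 0.0486) and without liver 24-month replicate 3 (2.22, adjusted p = 0.0222). In the same order 49 of 19928, 203 of 11772, 48 of 19928 and 1462 of 19928 genes passed, against 3 as deposited with every array. The filter on dim genes kept a gene if the mean of any group reached the median signal. Cidea was kept only through old liver (7.31, against 5.63 in young liver and 5.35 and 5.05 in quadriceps). That call is therefore not separate evidence of the difference. Plin4 differed by 0.44 between the tissues (adjusted p = 0.129) and Trarg1 by 0.58 (adjusted p = 0.244). Between heart and gastrocnemius no member passed either (0 of 9, with 0.595% of all genes past the threshold), and Retn came nearest with -0.43 (adjusted p = 0.22), the 1 member at an unadjusted p under 0.05, which 13.8% of all genes reached.

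Other genes of lipid droplets and fat cells were read from lists, and 0 genes of any list passed the adjusted threshold for age in any of the 4 tissues (limma). Of 18 further genes for droplet coats, storage and lipolysis, 15 were lower in old liver (median -0.12 against 0.03 over all genes). An unadjusted p under 0.05 was reached by 6 of them and by 32.8% of all genes. The list was bright in liver, with array means of 9.97 to 10.03. In the bright classes 8, 9 and 10, 18.9%, 17.8% and 28.9% of all genes were higher at 24 months, with medians of -0.14, -0.143 and -0.077. In direction and median the list was thus near other genes of its level. The ages did not overlap in 11 of the 18 genes, and in 36.1% of all genes, a share not taken by level. Pnpla3, a droplet lipase homologue, read 6.51, 6.55 and 6.52 and then 7.30, 7.14 and 6.84 (difference 0.57, adjusted p = 0.0543). Dgat1, which makes triglyceride, differed by -0.40 (9.36 to 8.96, adjusted p = 0.0543), and Fitm1, which helps droplets form, by 0.63 (10.39 to 11.02, adjusted p = 0.0742).

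The same list had 13 of 18 genes lower in quadriceps (median -0.04), 14 of 18 in heart (-0.03) and 12 of 18 in gastrocnemius (-0.06), with 0, 1 and 3 at an unadjusted p under 0.05. Of all genes, 7.06%, 5.99% and 16.5% reached it, and 52.4%, 56.6% and 55.8% were higher at 24 months. In heart the 1 gene of the list was Plin2, the droplet coat of most cells, which read 10.18 to 10.37 over the young arrays and 9.96 to 10.17 over the old ones. Its ages did not overlap, and the difference of -0.23 had an adjusted p of 0.494 (limma). By each tissue's own classes of level, the list's array means fell in class 8 in quadriceps, 9 in heart and 8 to 9 in gastrocnemius. In those classes 49.2%, 45.5% and 35.5% to 36.2% of all genes were higher at 24 months.

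Of 14 genes for fat cell transcription and lipid uptake measured in liver, 9 were higher and 5 lower in old liver, where 54.4% of all genes were higher. In this list 6 genes reached an unadjusted p under 0.05, as did 32.8% of all genes. Among them Srebf1, a regulator of fatty acid synthesis, differed by 0.43 (adjusted p = 0.077), Fabp5, the relative of Fabp4, by -0.63 (adjusted p = 0.0698), and the fatty acid transporter Slc27a1 by -0.33 (adjusted p = 0.066). In heart Pparg, the nuclear receptor that directs fat cell formation, read 7.28, 7.40, 7.31 and 7.44 and then 7.63, 7.41, 7.73 and 7.82, a difference of 0.29 (adjusted p = 0.538). In gastrocnemius Gpd1, which supplies glycerol phosphate for triglyceride, differed by -0.27 (11.15 to 10.88, adjusted p = 0.124).

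Receptors for the members' hormones were the last list. Lepr, the leptin receptor, read 7.42, 9.28 and 8.98 in young liver and 6.11, 6.40 and 7.64 in old liver, a difference of -1.84 (SE 0.50, adjusted p = 0.0655, limma). The ages overlapped, since old replicate 3 lay above young replicate 1. In quadriceps Lepr had 5.53 and 5.93 (difference 0.41, adjusted p = 0.622), with no overlap of the ages. The receptor Adipor1 differed by 0.06 in quadriceps (adjusted p = 0.904), -0.07 in heart (adjusted p = 0.938) and -0.07 in gastrocnemius (adjusted p = 0.527). Among 10 other fat cell markers in gastrocnemius, the natriuretic peptide clearance receptor Npr3 had the smallest p, with 6.29, 6.32, 6.35 and 6.11 and then 6.71, 6.62, 6.52 and 6.49 (difference 0.32, adjusted p = 0.108).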

How the data were processed

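Total RNA of 28 mouse tissue samples was amplified with a whole-transcript kit and hybridised to Affymetrix arrays, per the labels' protocols. Each array type has its own table of log2 expression, which the authors deposited with 1 value for every probe set. Per the submitters' processing notes they used RMA, a method that subtracts background, brings the arrays to a common scale and combines the probes of a set, with no version named. Such values can lose a shift common to most genes. Array values give no counts, so the number of arrays limits the precision.

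Probe sets with 1 gene symbol were kept (21797 and 30604), RefSeq names of GRCm38.p6 replaced older symbols (23 and 1135 probe sets), and the probe set of highest mean stood for each gene. Trarg1 is listed under an older symbol on the heart and gastrocnemius arrays. Groups came from the labels. Each tissue was fitted alone in R 4.3.3 with limma 3.58.1 (lmFit, eBayes, two-sided, Benjamini-Hochberg over all genes, threshold 0.05), and tissues of 1 array type were compared in a joint model. The fits were tested on simulated data first. No replicate block was used. Confidence intervals are unadjusted.

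The members and lists were chosen with earlier results of these data known. Named genes are all members, at most the 3 genes of smallest p of each other list and tissue, and the 5 genes most like the members' mean; Aoc3, Sncg, Mrap, Slc7a10, Lpl, Cd36, Ucp1, Adipor1 and the tissue markers were named outside that rule, after their values were seen. Alternatives were other normalizations, a filter on dim genes, all probe sets, another prior, joint fits, a replicate block and leaving out arrays.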

Additional observations from a re-analysis of the deposited data

How the results depend on the processing

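No member passed for age in quadriceps, heart or gastrocnemius under any alternative run, and no age difference between heart and gastrocnemius did. In liver the count of 0 became 2 with median centring, 1 with cyclic loess, 2 with dim genes left out (4 members tested, median difference 0.082), 3 with trend and robust prior, 2 in the joint fit, and 0 to 5 without single arrays. The filter on dim genes kept a gene if the mean of any group reached the median signal. Cidea, 1 of the 2 called there, was kept only through its 24-month mean (7.31, against 5.63 at 6 months). Its call under that filter is therefore not separate evidence of an age difference. For liver against quadriceps the age count became 1 with median centring and with dim genes left out, and 0 to 1 without single arrays. All genes called there numbered 49 of 19928, 203 of 11772 and 0 to 1462 of 19928 in the same order. With dim genes left out the 1 member was Cidea, again kept only through old liver. Median centring raised the genes called in liver from 65 (28 higher) to 1960 (347 higher). All genes called in liver numbered 99 with cyclic loess, 1764 of 10382 with dim genes left out and 2243 with trend and robust prior. They numbered 3625 in the joint fit and 0 to 5073 without single arrays. With the replicate number as a block, a pairing that the labels do not state (correlations of same-numbered arrays' deviations -0.22 to 0.156 in liver, quadriceps and heart; 0.129, -0.045, 0.214 and 0.299 in gastrocnemius, where other-numbered arrays reached 0.111), 0 members and 0 genes passed in each tissue, against 65, 1, 2 and 3 genes without it. Liver members kept their signs throughout.

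Differences that changed sign are given next; apart from Plin1 between heart and gastrocnemius, none was past the threshold, and the cause was not tested. In quadriceps, without both low arrays, they were Plin4 (0.085), Plin1 (-0.185), Adipoq (-0.145) and Retn (-0.31); without single arrays the ranges were -0.085 to 0.07 for Plin4, -0.335 to 0.155 for Trarg1, -0.298 to 0.612 for Cidec, -0.245 to 0.305 for Plin1, -0.463 to 0.602 for Adipoq and -0.622 to 0.433 for Retn. In heart, Fabp4 was -0.046 with quantile normalization, and median centring gave Fabp4 -0.002 and Plin4 -0.01. The atrial covariate gave Fabp4 -0.044, Plin4 -0.037, Cidec 0.039, Adipoq 0.006, Retn 0.039 and Plin1 0.003. Heart ranges without single arrays were -0.017 to 0.054 for Fabp4, -0.023 to 0.043 for Plin4, -0.059 to 0.024 for Cidec, -0.138 to 0.001 for Adipoq, -0.127 to 0.015 for Retn, -0.07 to 0.02 for Lep and -0.067 to 0.006 for Plin1. In gastrocnemius, Lep was -0.003 with quantile normalization and -0.028 to 0.062 without single arrays, and Cidea -0.082 to 0.065. For liver minus quadriceps, Fabp4 was 0.053 with cyclic loess and -0.245 to 0.01 without single arrays, Adipoq -0.412 to 0.653 and Retn -0.107 to 0.948. For heart minus gastrocnemius, Lep was -0.092 to 0.003 and Cidea -0.013 to 0.134 without single arrays, and Plin1 at 6 months was -0.175, -0.183 and -0.176 with quantile, median and cyclic loess normalization.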
